A study of Mus musculus with 6 samples.

Results

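CCAAT/enhancer-binding proteins (C/EBPs) were followed in dermal fibroblasts from C57BL/6 mice that were cultured in serum and given IL-1, a cytokine that starts inflammation in skin. The members were chosen by name: every non-control probe whose gene name in the scanner files was Cebpa, Cebpb, Cebpd, Cebpg, Cebpz or Ddit3. This gave 13 probes for 6 genes, of 41174 non-control probes for 28100 gene names on the array. All 13 probes were brighter than background in at least 1 complete condition and were kept. The treated cells received IL-1 at 20 ng/ml for 1, 2 or 4 h, and the untreated cells (0 h) received none. The form of IL-1, the age of the mice and the number of cultures are not given in the sources used here.

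RNA of each treated time was hybridised against untreated RNA on a pair of 2-colour Agilent arrays with the dyes exchanged, which made 6 arrays. The dye swap repeats the labelling and not the treatment, so each time had n = 1 treated RNA and no test was possible at a single time. At each time a gene was called by size alone, at least 2-fold (1 on the log2 scale) in both dye orientations. Across times, limma tested whether the mean log2 ratio of treated over untreated differed from 0 with the 3 times as samples, and a second fit tested the slope per doubling of time; p-values were adjusted by Benjamini-Hochberg over all 30580 kept probes. These p-values measure the spread between the 3 times and leave out the spread of the untreated cells.

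C/EBPs are transcription factors that pair through a leucine zipper and bind DNA through an adjoining basic region. C/EBPβ and C/EBPδ are known for driving acute-phase and cytokine genes together with NF-kB, C/EBPα for growth arrest and differentiation of fat and myeloid cells, and C/EBPγ and CHOP (the product of Ddit3) for pairing with the other members and dampening or redirecting them. Cebpz carries the family's name but encodes a CCAAT-binding protein of another structure, related to factors that assemble ribosomes.

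Among the 22210 genes represented by their brightest kept probe, 2 of the 6 members, Cebpd and Cebpb, were at least 2-fold higher at 1 h, at 2 h and at 4 h. Of all genes, 0.212% passed this rule at 1 h, 0.18% at 2 h and 0.135% at 4 h. No member was at least 2-fold lower at any time, against 0.009% of all genes at 1 h, 0% at 2 h and 0% at 4 h. In the mean response 3 of the 6 members rose (Cebpd, Cebpb and Ddit3), where 10.8% of all genes rose, and none of the 6 fell, where 11.1% of all genes fell (2391 and 2466 genes, or 1136 and 5780 with median centring in place of loess); the other 3 (Cebpa, Cebpg and Cebpz) did not pass limma's adjusted threshold of 0.05. By probe, 5 of the 13 rose. No member probe had a slope past the threshold in either direction, against 0.27% of genes overall for rising slopes and 0.324% for falling ones. The adjusted p-values of the 13 slopes lay between 0.556 and 0.997, and no unadjusted p was under 0.05 (the lowest was 0.0817).

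**Figure D1:**
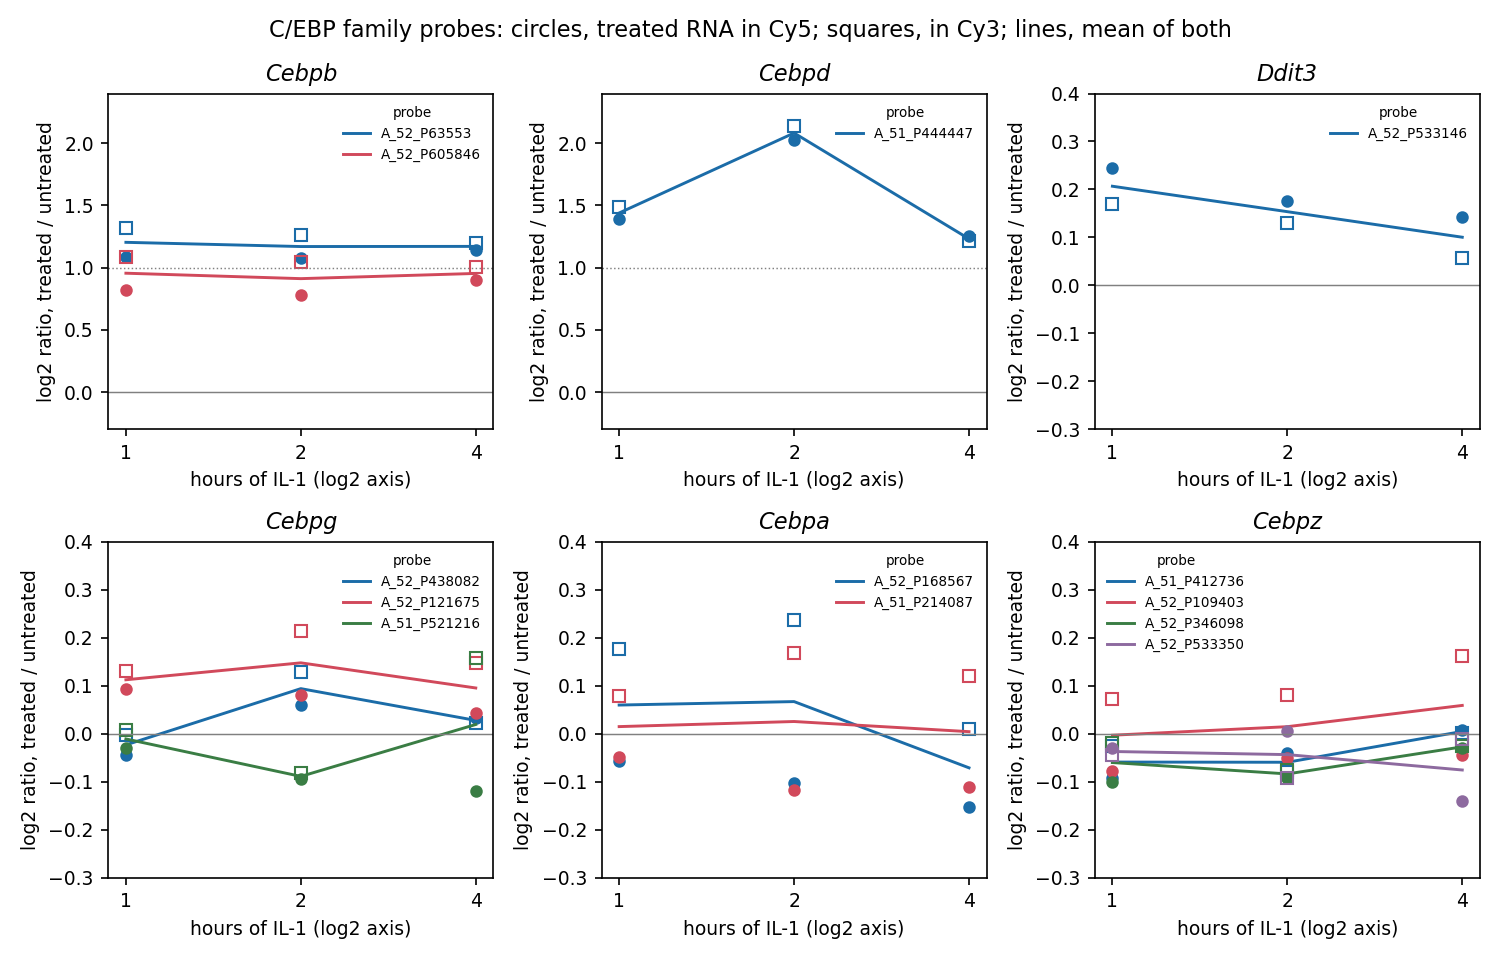
Log2 ratio of IL-1-treated over untreated RNA (vertical axis) against hours of IL-1 (horizontal axis, log2 scale) for the 13 probes of the 6 genes, with circles for treated RNA in Cy5, squares for treated RNA in Cy3 and lines for their mean; the dotted line marks 1, a 2-fold rise. Cebpd peaked at 2 h at 2.08, the brighter Cebpb probe stayed between 1.17 and 1.20, and the lower row and Ddit3, drawn on a narrower axis, stayed under 0.25.

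Cebpd encodes C/EBPδ, an activator known as an early target of inflammatory cytokines. Its only probe, A_51_P444447, lies at bases 14656128 to 14656187 of chromosome 16 by the array files, which do not name the genome build. On the normalized log2 signal scale its 6 untreated channels had a lowest value of 11.61, a median of 11.67 and a highest value of 11.77. The treated channels read 13.00 in Cy5 and 13.13 in Cy3 after 1 h, 13.80 and 13.89 after 2 h, and 12.94 and 12.83 after 4 h. Every treated channel was above every untreated one, and the order of the levels was 2 h, then 1 h, then 4 h, then untreated, with no overlap between the channels of neighbouring times.

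As ratios within each array, Cebpd was higher by 1.39 with treated RNA in Cy5 and 1.49 with treated RNA in Cy3 at 1 h on the log2 scale. The pair was 2.03 and 2.14 at 2 h, and 1.25 and 1.21 at 4 h. The means were 2.71-fold, 4.24-fold and 2.35-fold higher at 1, 2 and 4 h. Over the 3 times the mean log2 ratio was 1.58 ± 0.15 (SE, n = 3; limma adjusted p = 0.00176), and 6 of 6 arrays were above 0. Among all 22210 genes Cebpd ranked 32 from the top at 1 h, 11 at 2 h and 21 at 4 h.

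The rise and fall of Cebpd was the clearest change between times in the family. From 1 h to 2 h its log2 ratio went up by 0.63 in the Cy5 orientation and 0.65 in the Cy3 orientation, and by the smaller of the pair it ranked 3 of the 22210 genes. From 2 h to 4 h it fell by 0.77 and by 0.93, and by the smaller fall it ranked 7. Each orientation lay at most 0.056 from their mean at a given time, so both steps were many times the spread of the dye swap; that spread does not cover differences between cultures, and the peak rests on 1 treated RNA. A straight slope over log2 time does not describe such a peak, and the fitted slope was -0.10 ± 0.16 (SE, limma adjusted p = 0.883).

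Cebpb encodes C/EBPβ, first described as the nuclear factor of the Il6 gene; its gene has no introns, and its one mRNA is translated into long activating and short inhibitory forms that an array cannot tell apart. It had 2 probes, A_52_P63553 at bases 167199081 to 167199139 and A_52_P605846 at bases 167198543 to 167198602 of chromosome 2 (build not named in the files), with starts 538 bases apart. The untreated channels of the brighter probe, A_52_P63553, had a lowest log2 signal of 11.30, a median of 11.34 and a highest of 11.67. Its treated channels read 12.39 in Cy5 and 12.65 in Cy3 after 1 h, 12.70 and 12.94 after 2 h, and 12.50 and 12.50 after 4 h. All treated channels were above all untreated ones. The treated levels at 1 h and 4 h overlapped, and the higher level at 2 h went with higher untreated channels on the same arrays, 11.63 and 11.67 against 11.30 to 11.36 on the other 4.

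Taken within arrays, the log2 ratio of A_52_P63553 was nearly level over time. It was 1.09 with treated RNA in Cy5 and 1.32 with treated RNA in Cy3 at 1 h. The pair was 1.08 and 1.26 at 2 h, and 1.14 and 1.20 at 4 h. The means corresponded to 2.30-fold, 2.25-fold and 2.25-fold higher signal. The mean over times was 1.18 ± 0.023 (SE, n = 3; limma adjusted p = 1.25e-05) with 6 of 6 arrays above 0. Of the 40 genes with a mean log2 ratio of at least 1, Cebpb had the second smallest spread between its times (rank 2). Its widest step, from 1 h to 4 h in the Cy3 orientation, fell by 0.12, and the signs of the steps from 2 h to 4 h differed between orientations.

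The second Cebpb probe, A_52_P605846, gave a smaller rise with the same flat course. With the Cy5 orientation named first, its log2 ratios were 0.82 and 1.09 after 1 h, 0.78 and 1.05 after 2 h, and 0.90 and 1.01 after 4 h. Its mean was 0.94 ± 0.024 (SE, n = 3; limma adjusted p = 4.88e-05), which is 1.92-fold. In the Cy5 orientation it was under 1 at every time, so this probe alone did not meet the 2-fold rule, and with both probes averaged Cebpb met it at 4 h only.

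**Figure D2:**
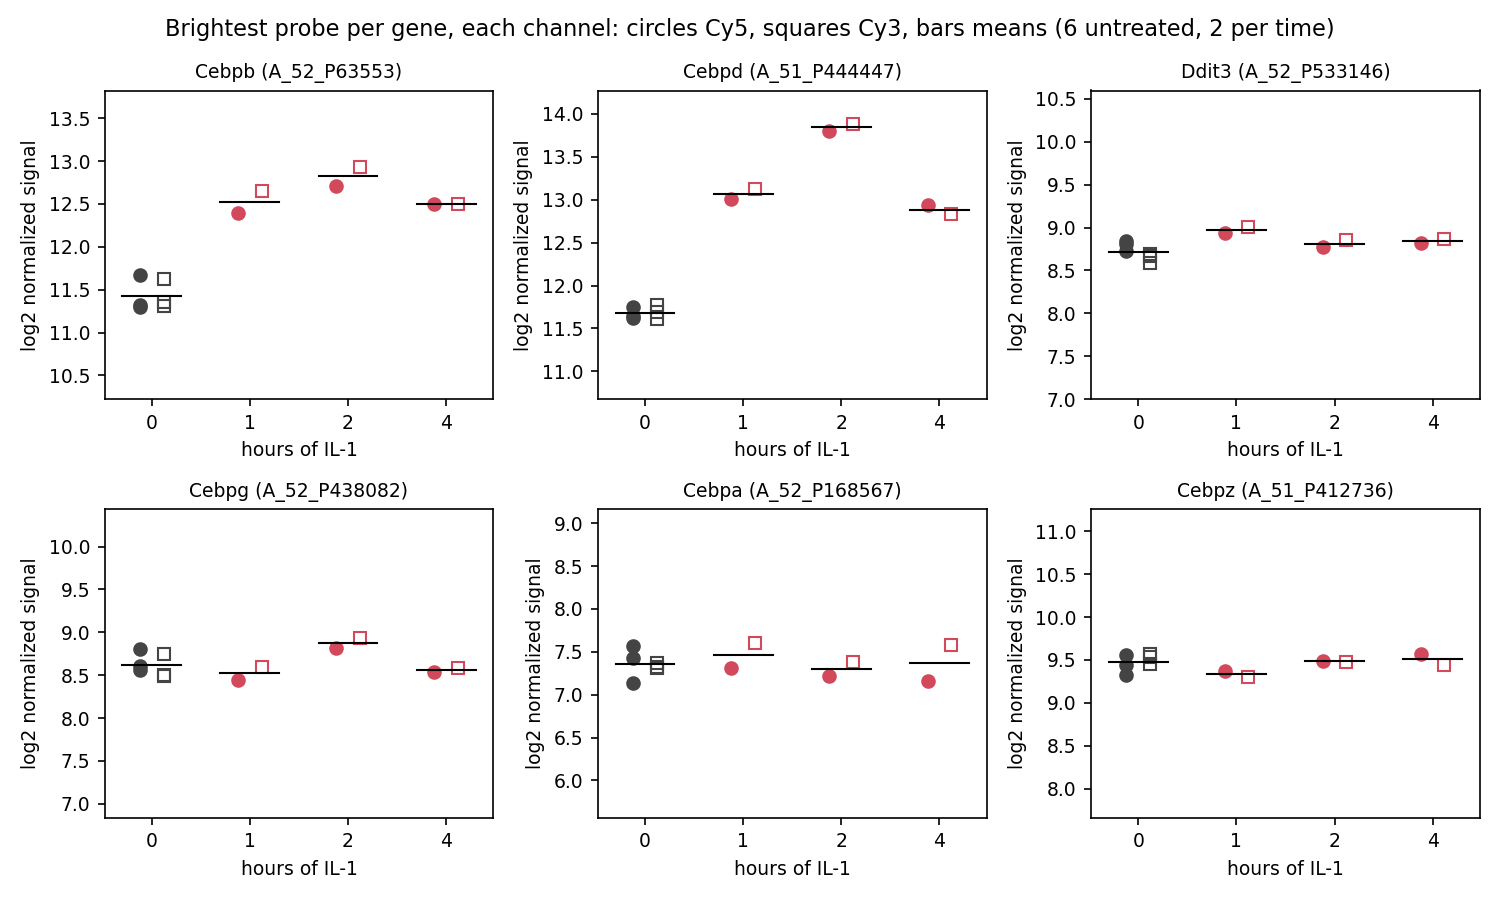
Normalized log2 signal (vertical axis) of the brightest probe of each gene in every channel against hours of IL-1 (horizontal axis), with circles for Cy5, squares for Cy3 and bars for the mean of the 6 untreated or 2 treated channels; each panel spans the same range. Treated channels of Cebpb and Cebpd lie above all untreated ones, and those of Cebpa, Cebpg and Cebpz lie close to them, with Cebpg at 2 h (8.81 and 8.93) just above its highest untreated channel (8.80). The untreated Cebpg channels on those 2 h arrays were also higher, 8.75 and 8.80, against 8.49 to 8.60 on the other arrays. Single treated channels also lay just outside the untreated range. In Cy3 Cebpa read 7.60 at 1 h and 7.58 at 4 h (highest untreated 7.57). Cebpz read 9.58 at 4 h in Cy5 (highest untreated 9.57) and 9.30 at 1 h in Cy3 (lowest 9.32). Cebpg read 8.45 at 1 h in Cy5 (lowest 8.49).

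Promoter sequence was at hand for 4 of the 6 members (Cebpa, Cebpb, Cebpg and Ddit3) in the RefSeq table of GRCm38.p6; Cebpd and Cebpz have no entry there. The 250 bases before the annotated start are shown for the member that rose most among these 4, for the one with a small rise, and for one whose brightest probe did not pass the test. Capitals mark matches, on either strand, to a set of short motifs: the CRE half-site TGACG bound by CREB and ATF factors, the CCAAT box, the AP-1 site TGANTCA, the C/EBP core TTGCNNAA, the TATA box TATAAA and the NF-kB consensus.
Cebpb, chr2:167688665-167688914, plus strand: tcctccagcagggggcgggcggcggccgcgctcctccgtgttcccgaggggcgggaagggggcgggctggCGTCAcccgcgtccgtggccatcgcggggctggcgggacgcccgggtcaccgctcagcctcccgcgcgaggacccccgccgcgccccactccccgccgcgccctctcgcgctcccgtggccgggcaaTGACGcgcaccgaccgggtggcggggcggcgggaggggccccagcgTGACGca
Ddit3, chr10:127290543-127290792, plus strand: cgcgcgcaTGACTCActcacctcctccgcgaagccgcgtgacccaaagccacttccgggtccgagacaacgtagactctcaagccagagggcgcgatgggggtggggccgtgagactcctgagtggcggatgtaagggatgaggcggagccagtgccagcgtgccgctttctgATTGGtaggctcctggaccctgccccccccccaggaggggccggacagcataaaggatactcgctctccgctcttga
Cebpg, chr7:35056567-35056816, minus strand: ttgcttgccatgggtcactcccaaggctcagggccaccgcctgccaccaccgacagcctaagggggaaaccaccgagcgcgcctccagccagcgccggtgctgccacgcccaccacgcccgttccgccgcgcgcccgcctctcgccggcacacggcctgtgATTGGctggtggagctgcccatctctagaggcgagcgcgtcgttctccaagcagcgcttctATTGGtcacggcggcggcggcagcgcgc

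The Cebpb window held 3 CRE half-sites, which start 180, 53 and 7 bases before the gene's start, and no match to the other 5 motifs. A CRE half-site occurs in 17.8% of the 32851 promoter windows of the table, and 3 or more occur in 0.688%. The Ddit3 window held 1 AP-1 site (in 6.75% of all windows) and 1 CCAAT box on the minus strand (33.8%). The Cebpg window held 2 CCAAT boxes, and that of Cebpa, not printed, only a TATA box 30 bases before the start (12.4%). None of the 4 matched the NF-kB consensus (7.25% of all windows) or the C/EBP core (9.56%); letters missing from these 250 bases say nothing about binding elsewhere. The windows of Cebpb, Cebpg, Cebpa and Ddit3 were 81.6%, 70.8%, 66.4% and 64.8% G or C, against a median of 52.4% over all windows.

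Ddit3 encodes CHOP, a C/EBP-like protein with an altered basic region that binds the usual site poorly and a known mark of endoplasmic reticulum stress. Its probe, A_52_P533146, lies between bases 127032100 and 127032403 of chromosome 10 by the files. Its 6 untreated channels had a lowest log2 signal of 8.59, a median of 8.70 and a highest of 8.84. The treated channels read 8.93 and 9.01 after 1 h, 8.77 and 8.85 after 2 h, and 8.82 and 8.87 at 4 h (Cy5, then Cy3). At 1 h both treated channels were above all untreated ones, and at 2 h and 4 h the groups overlapped. Within arrays its log2 ratio was 0.24 and 0.17 after 1 h, 0.18 and 0.13 after 2 h, and 0.14 and 0.057 at 4 h.

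The mean rise of Ddit3 was small, 0.15 ± 0.028 (SE, n = 3; limma adjusted p = 0.0129) or 1.11-fold, with 6 of 6 arrays above 0 and a rank of 1169 among the 22210 genes. It was lower at each later time in both orientations, but its slope of -0.053 ± 0.028 (SE) did not pass (limma adjusted p = 0.590). The call ended with the scanner's own processed signals (0.18, adjusted p = 0.0708), with median centring in place of loess (0.043, adjusted p = 0.364) and without the 2 h sample (0.15, adjusted p = 0.0884).

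Cebpg encodes C/EBPγ, a small partner without an activating region of its own. Its 3 probes did not give one answer. The brightest, A_52_P438082, had log2 ratios of -0.044 and -0.0014 after 1 h, 0.060 and 0.13 after 2 h, and 0.033 and 0.024 at 4 h, with a mean of 0.033 ± 0.029 (SE, n = 3; limma adjusted p = 0.486). The probe A_52_P121675 was above 0 on 6 of 6 arrays, between 0.044 and 0.21, and rose with a mean of 0.12 ± 0.024 (SE, n = 3; limma adjusted p = 0.0172). The third, A_51_P521216, had a mean of -0.026 (adjusted p = 0.576) and a Cy3 signal only 1.07 to 1.24 times that of the negative control spots. The call on A_52_P121675 did not hold with the scanner's processed signals (adjusted p = 0.0713), with median centring (0.208), without the arrays that carried treated RNA in Cy3 (0.0951) or without the 2 h sample (0.136).

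Cebpa encodes C/EBPα, which in fibroblast-like precursors comes on late in fat cell differentiation. The ratio of A_52_P168567 was -0.057, -0.10 and -0.15 at 1, 2 and 4 h with treated RNA in Cy5 and 0.18, 0.24 and 0.011 with treated RNA in Cy3, so its sign followed the dye. A_51_P214087 behaved likewise, at -0.048, -0.12 and -0.11 in Cy5 and 0.078, 0.17 and 0.12 in Cy3. The dye difference cancels in the means, which were 0.019 ± 0.034 (adjusted p = 0.746) and 0.015 ± 0.022 (adjusted p = 0.691; both SE, n = 3, limma). Both probes were dim: in Cy3 the first gave 1.62 to 1.85 times and the second 1.15 to 1.24 times the signal of the negative control spots.

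Cebpz had 4 probes, and none passed the test. Their mean log2 ratios were -0.038 for A_51_P412736, 0.024 for A_52_P109403, -0.057 for A_52_P346098 and -0.052 for A_52_P533350, with limma adjusted p-values of 0.354, 0.553, 0.151 and 0.172. All 24 single-array ratios of Cebpz lay between -0.14 and 0.16. A_52_P346098 was below 0 on 6 of 6 arrays, and A_52_P109403 was below 0 on the 3 arrays with treated RNA in Cy5 and above 0 on the 3 with treated RNA in Cy3. The standard errors of the 4 means, 0.023 to 0.025, would put a shift of the size seen for Cebpb far outside the spread between times. They do not cover the scaling or differences between cultures. With median centring the mean of A_51_P412736 was -0.16.

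**Figure D3:**
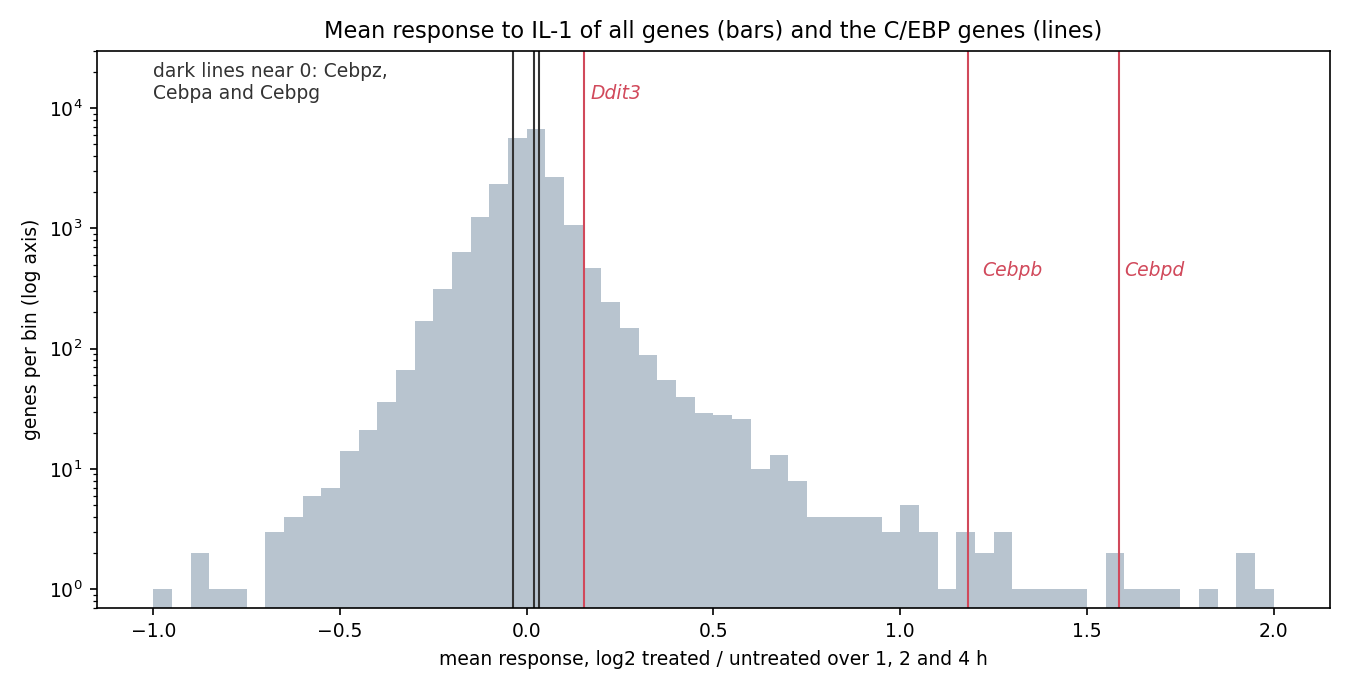
Number of genes (vertical axis, log scale) by mean log2 ratio of treated over untreated RNA across 1, 2 and 4 h (horizontal axis), with vertical lines for the brightest probe of each C/EBP gene, red where it rose in limma's test; 10 genes at 2 or above are not drawn. Cebpb at 1.18 and Cebpd at 1.58 lie in the thin right tail, Ddit3 at 0.15 on the right shoulder, and Cebpz, Cebpa and Cebpg near 0.

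The 5 genes nearest to Cebpd by the Euclidean distance of the 3 log2 ratios (3 times, a description only) were Ch25h (0.33), Fas (0.40), Zc3h12a (0.51), Relb (0.60) and Vcam1 (0.65). Ch25h encodes cholesterol 25-hydroxylase, and its ratios of 1.53, 1.83 and 1.04 at 1, 2 and 4 h also had their highest value at 2 h. The 5 nearest to Cebpb were Nfkb2 (0.24), Tlr2 (0.27), Cx3cl1 (0.28), Twist2 (0.31) and Micall2 (0.34). Nfkb2 encodes the p100 precursor of an NF-kB subunit, and its ratios were 0.98, 1.10 and 1.11.

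The list of genes known as targets of C/EBPβ and C/EBPδ in inflammation moved in 1 direction. Of 25 listed genes 21 were kept, and 19 of them (90.5%) rose and none (0%) fell in the mean response, against 10.8% and 11.1% of all genes; 2 did not pass. Their median mean response was 0.55 on the log2 scale, against 0.0037 over all genes, and it was 1.32 with the scanner's processed signals. The 3 highest were Cxcl1, a neutrophil chemokine, at 5.51 ± 0.22 (SE, n = 3), Cxcl5, another, at 4.22 ± 0.18, and Il6, the cytokine whose promoter gave C/EBPβ its first name, at 2.74 ± 0.077, with limma adjusted p-values of 0.000314, 0.000314 and 8.10e-05. Many of these genes are also NF-kB targets, and the list was drawn up with results of these arrays known, so its count is no independent evidence of C/EBP activity. The filter also favours rises in the 90.5%. A gene dim in untreated cells was kept only where a treated time was above background. With no filter on dim probes 20 listed genes rose, against 7.68% of all genes. With the scanner's processed signals 12 rose, against 3.31%, and without the 2 h sample 12 rose, against 3.01%.

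Il6 and Saa3 show the course of single genes in that list. Il6 was higher by 2.51, 2.96 and 2.73 at 1, 2 and 4 h. Saa3, an acute-phase apolipoprotein gene, was at 0.22, 0.41 and 0.89, with a mean of 0.51 (limma adjusted p = 0.0258) and a rising slope of 0.34 per doubling of time (adjusted p = 0.0327). Lcn2, the gene of lipocalin 2, together with Hp, Orm1 and Il1b, did not pass the filter on dim probes and has no value here.

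Other bZIP factors can pair with C/EBPs or compete with them for DNA. Of 29 listed and kept, 13 (44.8%) rose and 3 (10.3%) fell, against 10.8% and 11.1% of all genes, with a median mean response of 0.12 (0.20 with the scanner's processed signals). With those signals 4 listed genes rose, against 3.31% of all genes. The largest rises among genes past the threshold were those of Fosl2 (0.64 ± 0.091), Fosl1 (0.58 ± 0.096) and Maff (0.43 ± 0.057, all SE, n = 3), with limma adjusted p-values of 0.00570, 0.00936 and 0.00444. All 3 were highest at 1 h, at 0.92, 0.91 and 0.59, ahead of the 2 h peak of Cebpd. Junb and Atf3, named after their values were seen, were the only 2 genes of the list at least 2-fold higher at 1 h (1.33 and 1.18), with means of 0.65 and 0.53 that did not pass the test over the 3 times. The falls included those of Fos (-0.32) and Dbp (-0.23), with adjusted p-values of 0.00183 and 0.00380. Most of the Fos fall came from 1 orientation. At 1, 2 and 4 h Fos read -0.49, -0.61 and -0.53 with treated RNA in Cy5, and -0.027, -0.14 and -0.095 in Cy3. Its log2 signal of 6.70 was near the median of 6.62 over all non-control probes.

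Genes of the integrated stress response and the unfolded protein response, where CHOP acts downstream of ATF4, had a median mean response of 0.051. Of 36 kept genes 10 (27.8%) rose, 3 (8.33%) fell and 23 did not pass, against 10.8% rising and 11.1% falling among all genes. Atf3, which is also in this list, was its 1 gene at least 2-fold higher at 1 h (1.12 and 1.24 in the Cy5 and Cy3 orientations), with a falling slope of -0.60 (limma adjusted p = 0.0034) and no call in the mean response. The largest rises past the threshold were Ppp1r15a (0.31), the CHOP target that restarts translation, Gadd45a (0.29) and Ppp1r15b (0.21), with limma adjusted p-values of 0.00208, 0.0117 and 0.00308. Atf4, the direct activator of Ddit3, rose by 0.21 (adjusted p = 0.00264), and Hspa5, the main chaperone of the endoplasmic reticulum, by 0.12 (adjusted p = 0.0153). Ppp1r15a and Atf4 rose more with treated RNA in Cy3. At 1, 2 and 4 h Ppp1r15a read 0.18, 0.047 and 0.19 in Cy5, and 0.51, 0.43 and 0.53 in Cy3. Atf4 read 0.048, 0.077 and 0.11 in Cy5, and 0.36, 0.34 and 0.29 in Cy3. Trib3, a further target of CHOP and ATF4, was at -0.077 (adjusted p = 0.231) and was not called. At 1, 2 and 4 h Trib3 read -0.36, -0.17 and -0.13 with treated RNA in Cy5, and -0.025, 0.097 and 0.12 in Cy3. The falls were Dnajc3 (-0.17), Eif2ak4 (-0.13) and Sdf2l1 (-0.12).

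Regulators that set the amount or activity of C/EBPs stayed near 0 as a list, with a median of -0.0062: of 24 kept genes 2 (8.33%) rose and 3 (12.5%) fell, near the 10.8% and 11.1% of all genes. Trib1, an adaptor that sends C/EBPα to degradation, rose by 0.31 (limma adjusted p = 0.00362), and Mapk3, the gene of the kinase ERK1, by 0.19 (adjusted p = 0.00399). The falls were Stat3 (-0.19, adjusted p = 0.0354), Pias1 (-0.19, 0.00805) and the co-activator gene Ep300 (-0.13, 0.0107). Stat3 read -0.24, -0.32 and -0.49 at 1, 2 and 4 h with treated RNA in Cy5, but 0.054, 0.031 and -0.20 in Cy3. Ep300 at 2 h read -0.31 in Cy5 and 0.058 in Cy3. Pias1 was negative in both orientations at each time.

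In the adipogenic cascade, where C/EBPβ and C/EBPδ precede C/EBPα and PPARγ, none of 23 kept genes rose and 2 fell, Klf4 (-0.18, limma adjusted p = 0.00685) and Fabp4 (-0.084, 0.0459); the median was 0.0044. These falls are 8.70% of the list, near the 11.1% of all genes. The fall of Fabp4 is a mean over opposite signs, above 0 on the 3 arrays with treated RNA in Cy5 and below 0 on the other 3. Pparg, the master regulator, was at -0.056, -0.14 and -0.42 at 1, 2 and 4 h with a mean of -0.20 (adjusted p = 0.0740). Egr2, an early factor known to act on Cebpb in fat cell precursors and named here after its values were seen, was at 1.28, 0.049 and -0.46, with a falling slope (adjusted p = 0.0131) and no call in the mean response.

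Ribosome assembly genes, the company of Cebpz by function, rose in 12 of 25 cases (48%) and fell in 1 (4%), against 10.8% and 11.1% of all genes, with a median of 0.086. The largest rises were Nop14 (0.26), Ncl (0.26) and Polr1b (0.18), with limma adjusted p-values of 0.00194, 0.00219 and 0.00659, while Cebpz itself gave no call on any probe. Most of the Ncl rise came from 1 orientation. At 1, 2 and 4 h Ncl read 0.023, 0.084 and 0.12 with treated RNA in Cy5, and 0.42, 0.41 and 0.47 in Cy3. Npm3, a histone-binding nucleolar chaperone gene, fell by 0.63 (limma adjusted p = 0.00058). Its ratio was below 0 on each array, but at 2 h it was -1.19 in Cy5 and -0.27 in Cy3. With median centring in place of loess the medians of this list and of the stress response list changed sign, to -0.056 and -0.058, so the direction of such small shifts depends on the scaling.

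**Figure D4:**
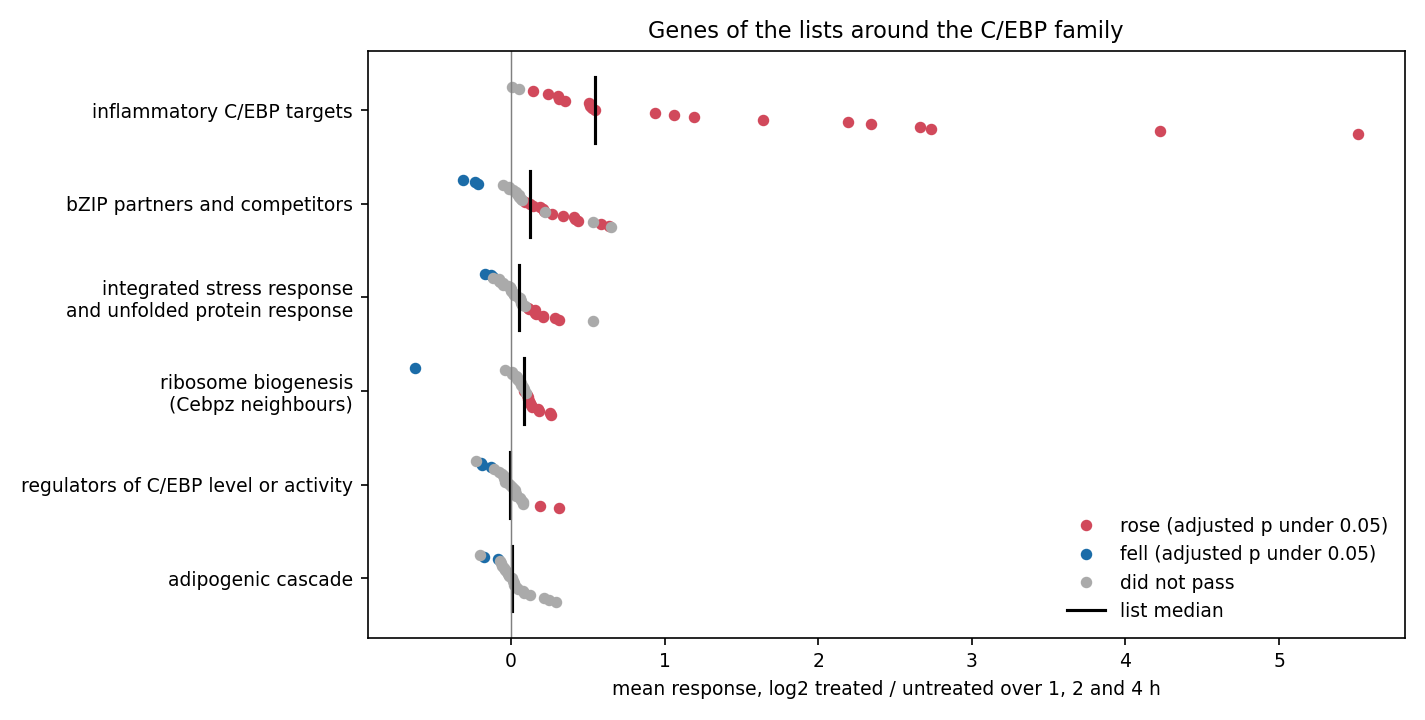
Mean log2 ratio of treated over untreated RNA across 1, 2 and 4 h (horizontal axis) for each kept gene of 6 lists (rows), red where it rose, blue where it fell and grey where it did not pass limma's adjusted threshold, with a black bar at each list's median. The inflammatory list spreads to 5.51 with a median of 0.55, and the medians of the other lists lie between -0.0062 and 0.12.

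All 15 fibroblast marker genes were well above background in every untreated channel (log2 signal 7.59 to 15.8). So were 7 of 8 macrophage markers, 6 of 8 keratinocyte, 4 of 5 mast cell, 3 of 6 adipocyte, 2 of 6 endothelial and 1 of 4 melanocyte markers. Those that were not included Adipoq and Lep of fat cells, Pecam1 and Cdh5 of endothelium, Cdh1 and Epcam of epithelium, Itgam of myeloid cells and Tyr of melanocytes. The fibroblast list had a median log2 signal of 11.7, and the medians of the other lists lay between 6.09 and 6.76. Over all non-control probes the median was 6.62, and over negative control spots it was 5.89. Most markers of the other cell types were thus dim, with Lyz2 an exception at 11.7. Of the 7 kept macrophage markers 3 rose (Cd14 by 0.17, Csf1r by 0.13 and Lyz2 by 0.086), and the list ranged from -0.026 to 0.17, against 1.18 for Cebpb and 1.58 for Cebpd; their part in these results was not tested. In RNA of a whole culture, more cells with a transcript and more transcript per cell cannot be told apart.

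**Figure D5:**
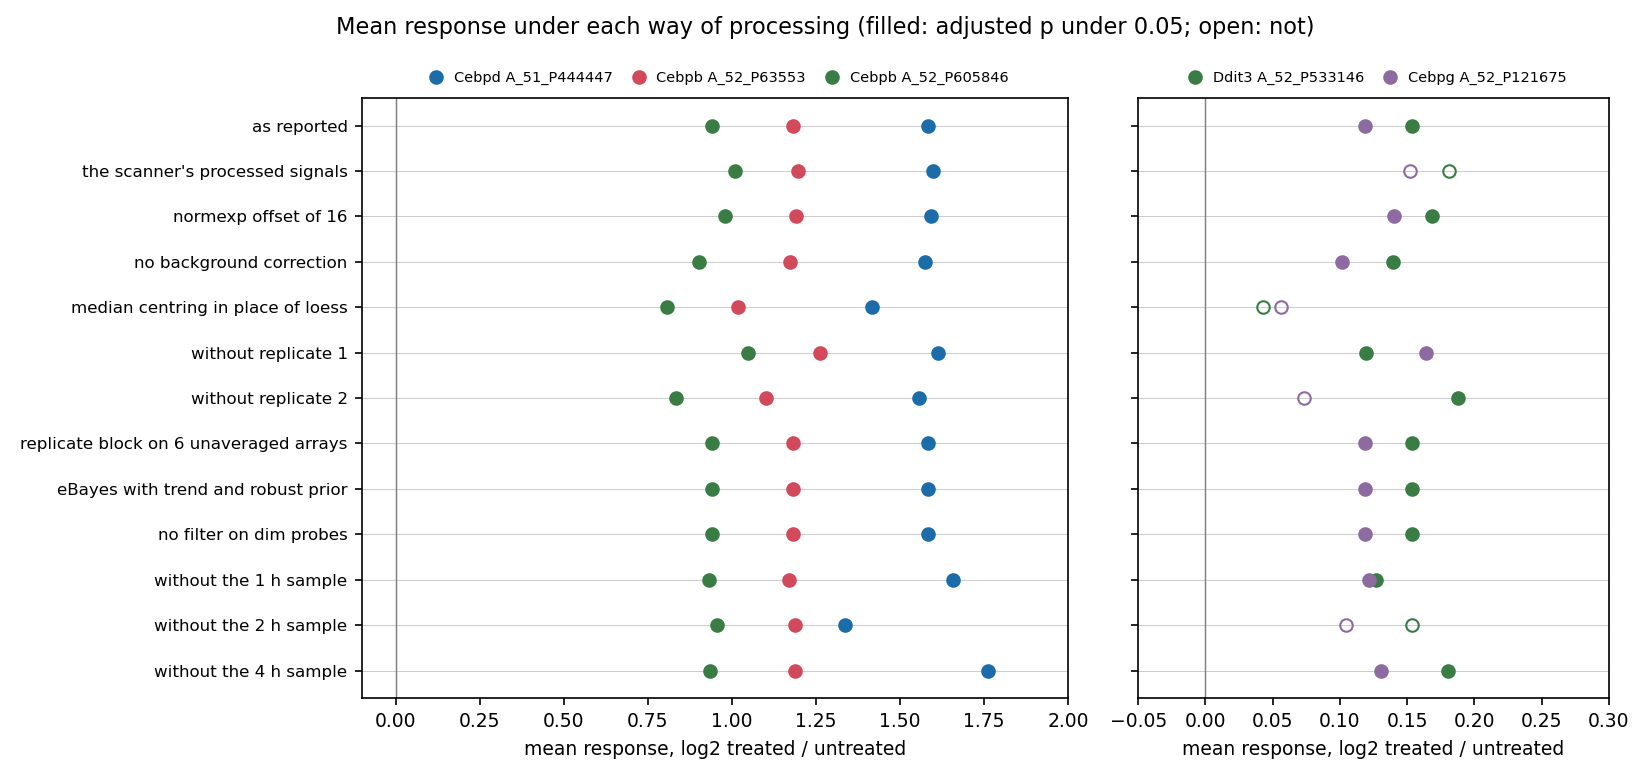
Mean log2 ratio over the 3 times (horizontal axis) of the 5 member probes that rose, under each way of processing (rows), filled where limma's adjusted p was under 0.05 and open where not. Cebpd stays between 1.34 and 1.76 and the brighter Cebpb probe between 1.02 and 1.26, filled in every row, while Ddit3 and the Cebpg probe are open in 3 and 4 rows.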

How the data were processed

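The files were the deposited Agilent Feature Extraction tables of 6 arrays (version 7.5.1 per the file headers). The spot and local background intensities they hold were written by the scanner software before correction; a further pair of intensity columns, used as an alternative, is background-subtracted and dye-normalized per the file headers. Intensities were corrected with limma 3.58.1 in R 4.3.3 (normexp, offset 50) and loess-normalized within each array, with control spots at weight 0 and outlier spots left out. Signs were turned to treated over untreated by the labels' dyes, and spots of a probe and the 2 arrays of a time were averaged. Probes had to exceed background by the scanner's flag on every array of at least 1 condition (30637 did, and 57 of these lacked a value). Single-channel levels were scaled between arrays (Aquantile). Genes were counted by their brightest kept probe.

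The deposited table of log2 values has columns exchanged within each time: each equals, within 0.001 for 100% of spots, the processed treated over untreated ratio of the other array of its pair. Its medians were -0.026 and 0.026 (1 h), -0.031 and 0.031 (2 h), and -0.032 and 0.028 (4 h). The table states no scale, centring or direction, and the direction used here rests on the labelled dyes; had the 2 files of each pair been exchanged at deposit, every rise would be a fall. Replicate numbers mark dye orientation, and same-numbered arrays deviated together (correlations 0.781 to 0.855).

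The 2 orientations lay a median of 0.062 from their mean over genes. No array shared a slide. Named genes were all member probes, up to 3 rises and 3 falls per list among calls, 9 genes fixed by name, and the 5 genes nearest to each 2-fold member. A gene that this rule names among the bZIP falls is not reported here. Members and lists were chosen with earlier results of these data known. Alternatives covered background, scaling, probe choice, test, filter, orientation and time.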

Additional observations from a re-analysis of the deposited data

Results flagged for a closer look

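Cebpz and Cebpg each had a probe whose small ratios took opposite signs at different times, with both orientations on the same side each time. Cebpz probe A_51_P412736 was at -0.059 at 1 h and -0.059 at 2 h, and at 0.0051 at 4 h. Cebpg probe A_52_P438082 was at -0.023 at 1 h, and at 0.094 at 2 h and 0.028 at 4 h. The differences between single times were not tested, and neither probe was called in the mean response or the slope.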

How the results depend on the processing

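The mean rises of Cebpd (1.34 to 1.76) and of both Cebpb probes (1.02 to 1.26 and 0.81 to 1.05) were past the limma threshold under each of the 12 alternatives run on them, and no alternative reversed a member call. Members counted as rising numbered 3 with a replicate block for dye orientation, with 0 falling and 0 slopes called, as without it. Of all 22210 genes 3271 (14.7%) rose and 3318 fell with the block, and 145 rising and 155 falling slopes were called. The block changed no other member count. Median centring left 0, 1 and 0 members at least 2-fold higher at 1, 2 and 4 h, since Cebpd then read 2.10 and 0.45 and Cebpb 1.78 and 0.30 at 1 h in the Cy5 and Cy3 orientations. Averaging the probes of a gene left 1 at 1 h and 1 at 2 h. With median centring or averaged probes, the 2-fold rule was not counted over all genes. Falling members numbered 1 with median centring (Cebpz, -0.16), where 5780 of all 22210 genes fell. Without replicate 2 they numbered 1 (Cebpa, -0.10), where 3560 genes fell, and without replicate 1 they numbered 0, where 4281 fell. The cause was not tested.

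Signs of values not called as reported turned as follows, and the cause was not tested. With median centring the mean became -0.076 for Cebpz A_52_P109403, -0.043 for Cebpa A_52_P168567 and -0.070 for Cebpg A_52_P438082, and the slope 0.011 for Cebpg A_52_P121675 and 0.014 for Cebpb A_52_P605846. With no background correction the slope became 0.0082 for Cebpa A_51_P214087, -0.0018 for Cebpg A_51_P521216 and 0.0022 for Cebpb A_52_P605846. The scanner's signals gave Cebpg A_51_P521216 a slope of -0.060. With 1 orientation left out at a time (replicates 1 and 2), means ran from -0.092 to 0.12 for Cebpa A_51_P214087, from -0.10 to 0.14 for Cebpa A_52_P168567, from -0.081 to 0.028 for Cebpg A_51_P521216 and from -0.057 to 0.10 for Cebpz A_52_P109403. The slopes ran from -0.032 to 0.021 for Cebpa A_51_P214087, from -0.045 to 0.075 for Cebpg A_51_P521216, from -0.025 to 0.0079 for Cebpg A_52_P121675, from -0.0030 to 0.036 for Cebpz A_52_P346098, from -0.055 to 0.016 for Cebpz A_52_P533350, from -0.041 to 0.040 for Cebpb A_52_P605846 and from -0.061 to 0.029 for Cebpb A_52_P63553. Without the 1 h sample the mean of Cebpa A_52_P168567 was -0.0017; without the 2 h sample it was -0.0053, and that of Cebpg A_51_P521216 was 0.0045.

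Over the alternatives the inflammatory list had 12 to 20 rising genes and 0 falling, and the bZIP list 4 to 16 and 2 to 5. The stress response list had 3 to 14 and 0 to 15, and the ribosome list 2 to 16 and 1 to 6. Regulators had 2 to 6 and 0 to 12, and the adipogenic list 0 to 4 and 0 to 7. The most falls in the stress response, ribosome and regulator lists came with median centring, where 5780 of all 22210 genes fell. So did the fewest rising ribosome genes, where 1136 of all genes rose. Over all genes, rising calls went from 2391 to between 668 (without the 2 h sample) and 4750 (replicate 1 alone), and falling calls from 2466 to between 574 (the scanner's signals) and 5780 (median centring); rising and falling slopes, 60 and 72, went to between 0 and 233 and between 0 and 221. With 1 treated RNA per time, no value here covers differences between cultures.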
